A study of Mus musculus with 6 samples.

Results

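The nuclear genes of the mitochondrial respiratory chain and ATP synthase were compared between back epidermis of mice that had lost Spry1 in keratinocytes and of mice that had kept it. Members were taken by a rule on gene names, with no measured value in it: names starting with Nduf, Sdh followed by a single letter from a to d, Uqcr, Cox followed by a digit from 4 to 8, or Atp5. Of 54532 genes in the table, 107 had such names. After 9 names ending in -ps, or -ps and a number, were left out (8 annotated as processed pseudogenes, and Ndufb1-ps as a bidirectional promoter lncRNA with a mean of 42.2 FPKM), 98 members remained, under 97 distinct names because Atp5o was listed under 2 gene IDs. By complex they were 41 genes with complex I names, 8 complex I assembly factors (the Ndufaf genes), 4 of complex II, 8 of complex III, 19 of complex IV and 18 of complex V. Ndufa4 and its paralog Ndufa4l2 carry complex I names and were counted there, although their proteins are now placed with complex IV. Some names do not stand for subunits: 4 members are annotated as processed pseudogenes (Ndufb4c, Ndufs6b, Ndufa11b and Cox6c2), and Cyc1, the cytochrome c1 subunit of complex III, falls outside the names and is described apart.

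The controls were Spry1flox/flox mice and the knockouts were Spry1flox/flox mice that also carried K14-Cre-ERT2, a tamoxifen-activated Cre recombinase driven by the keratin 14 promoter of basal keratinocytes. Both genotypes received oral tamoxifen in corn oil, with doses of 0.1 mg per g of body weight given on 4 occasions a week for 4 weeks. Each genotype was represented by 3 RNA-seq samples of back epidermis. No sample carried the Cre without a floxed Spry1, so effects of the Cre and of the deletion cannot be told apart. Ages were not given in the sources used here. Whether each sample came from its own animal is not stated in the labels. The p-values therefore reflect the spread between these samples alone, which may be technical.

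Oxidative phosphorylation runs on 5 complexes of the inner mitochondrial membrane. Complex I takes electrons from NADH and complex II from succinate, and both pass them to ubiquinone. Complex III hands them on to cytochrome c, complex IV from there to oxygen, and complex V uses the proton gradient built by complexes I, III and IV to make ATP. All complexes except complex II combine subunits encoded in the nucleus with subunits encoded in mitochondrial DNA. Several subunits of complex IV come in isoforms, one used widely and another in muscle, testis or lung.

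Reads recovered from the deposited values ranged from 18383323 to 21024716 per sample. Spry1 itself, which checks the labels, was at 25.8, 28.2 and 34.4 FPKM in the controls but at 1.06, 1.49 and 1.28 FPKM in the knockouts. Its log2 fold change was -3.74 ± 0.13 (SE; limma adjusted p of 7.21e-06). The 9 keratinocyte markers, which check the tissue, summed to 16258 to 17332 FPKM in the controls against 22839 to 28679 FPKM in the knockouts. Of these markers 5 rose, 1 did not pass and 3 fell (Krt15 at -2.10, Krt10 at -0.92 and Trp63 at -0.37 on the log2 scale). Trp63 no longer passed with no filter, or when Control replicate 1 or 2 or any knockout sample was left out (limma adjusted p of 0.0541 to 0.144). Krt10 did not pass with no filter (limma adjusted p of 0.201). Markers of other cell types were counted in the same way, where 29.6% of all genes tested rose and 24.4% fell. The sums of the adipocyte markers, and of the fibroblast and vessel markers, overlapped between genotypes. Of 14 skeletal muscle markers 7 could be tested and all 7 fell (20.6 to 80.0 FPKM summed in the controls, 4.7 to 7.3 FPKM in the knockouts, with Tnnc2 at 0 throughout), and of 7 melanocyte markers 6 rose (10.6 to 14.1 against 212 to 216 FPKM). Of 10 immune cell markers tested 3 rose and 7 fell (658 to 1066 against 256 to 428 FPKM), of 4 fibroblast and vessel markers tested 2 fell (6.6 to 13.4 against 2.7 to 6.7 FPKM), and of 3 adipocyte markers tested 1 rose (3.9 to 23.0 against 18.4 to 27.6 FPKM, with Ucp1 at 0 throughout). Their part in the differences of the respiratory chain genes was not tested. In bulk tissue, fewer cells of a type and less RNA per cell cannot be told apart.

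Most nuclear respiratory chain genes were higher in the knockouts. Of the 98 members, 89 reached a mean of 1 FPKM over the 6 samples and were tested, and 68 of them rose, 2 fell and 19 did not pass (limma on log2(FPKM + 1), Benjamini-Hochberg adjusted p under 0.05 over all genes tested). Among all 12629 genes tested, 29.6% rose and 24.4% fell, against 76.4% and 2.25% of the tested members. Under TPM scaling, which sets the FPKM of each sample to a common sum, 46 members rose and 7 fell, where 16.3% of all genes rose and 35.4% fell. The members' median log2 fold change was 0.63 (quartiles 0.35 and 0.82), beside 0.03 for all genes tested. Single members ranged from -0.95 to 1.53, and 80 of the 89 were above 0. A rise of at least 1 log2 unit was seen for 10 of the 89 tested members, and for 1024 of all 12629 genes tested (8.11%). The knockout samples lay wholly above the controls for 72 members and wholly below for 4, where the groups were separate in these directions for 34.9% and 29.4% of all genes tested.

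**Figure D1:**
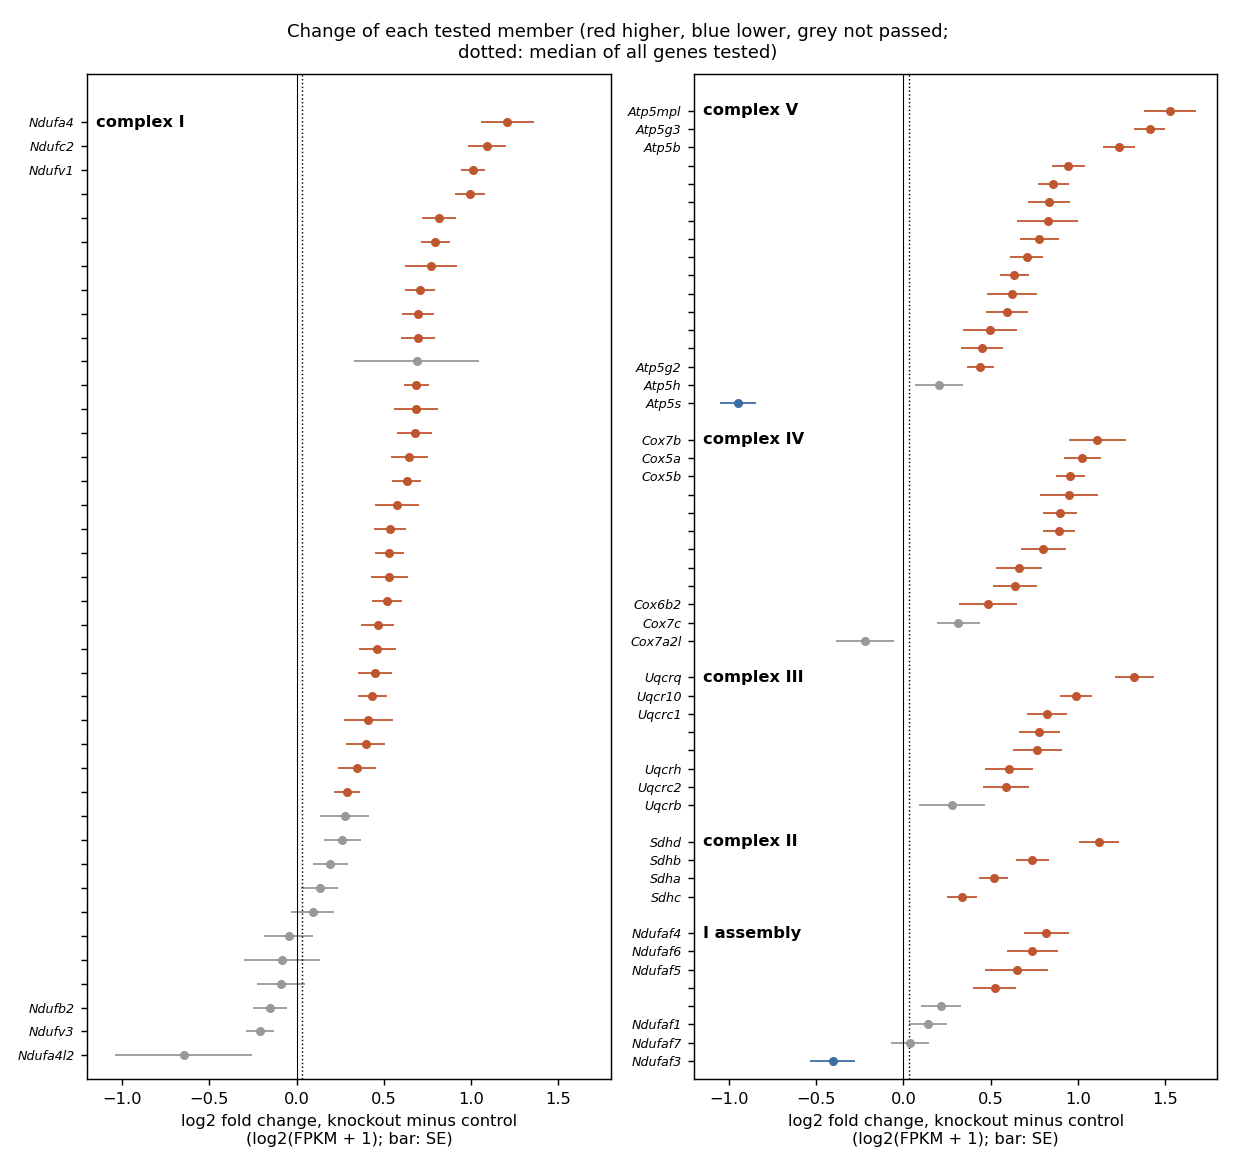
Log2 fold change (knockout minus control, on log2(FPKM + 1), with its SE) of the 89 tested members by complex, coloured by the limma call, with names at the 3 highest and 3 lowest of each complex. Points to the right of the dotted line exceed the median of all genes tested (0.03), and Atp5s (-0.95) and Ndufaf3 (-0.41) are the members that fell.

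The summed level of the members was 5617, 6054 and 5408 FPKM in the controls against 8733, 8706 and 10024 FPKM in the knockouts. The groups did not overlap, and the ratio of their means was 1.61. The sum over all genes tested was also separate between genotypes, at 338359 to 382038 against 411030 to 480611 FPKM, a ratio of 1.22. As a share of all FPKM, the members were at 1.46%, 1.58% and 1.58% in the controls against 2.11%, 1.93% and 2.08% in the knockouts. The sums of the subunit complexes were separate between genotypes in every case. Complex I names summed to 1830 ± 142 and 2627 ± 238 FPKM (control and knockout means ± SD, n = 3 each). Complex II summed to 134 ± 9.04 and 234 ± 7.84 FPKM, and complex III to 745 ± 33.8 and 1269 ± 139.5 FPKM. Complex IV summed to 1671 ± 96.1 and 2730 ± 235 FPKM, and complex V to 1248 ± 58.7 and 2215 ± 131 FPKM. The ratio of the means was thus lowest for complex I names (1.44) and highest for complex V (1.77). The complex I assembly factors summed to 64.7 ± 1.07 and 79.5 ± 9.76 FPKM, a ratio of 1.23. This was near the ratio of 1.22 for all genes tested. As a share of all FPKM, the assembly factors overlapped between genotypes (0.0170% to 0.0186% in the controls, 0.0164% to 0.0188% in the knockouts).

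**Figure D2:**
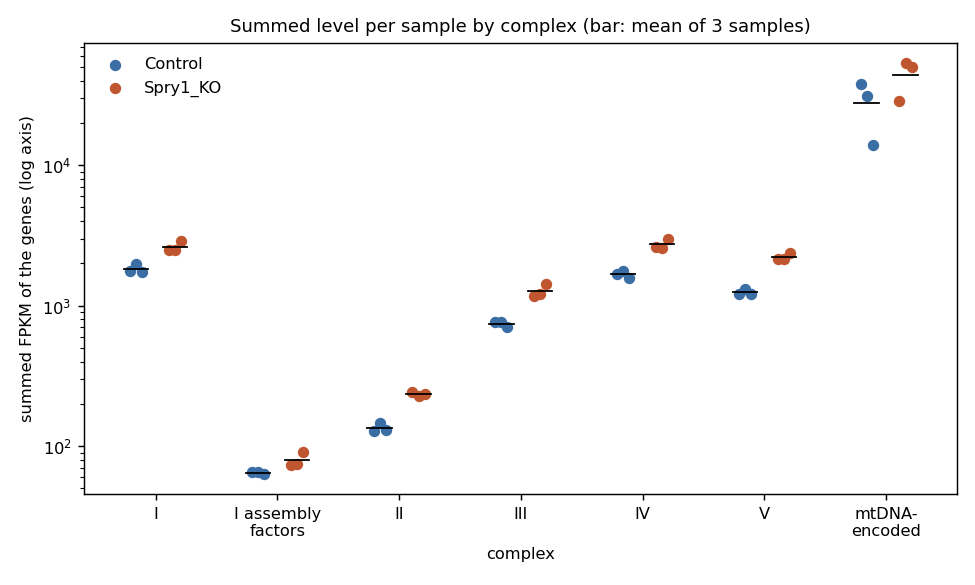
Summed FPKM in each sample (points, log axis) of the members of each complex and of the 13 subunits encoded in mitochondrial DNA, with the mean of 3 samples as a bar. Knockout samples lie above the controls for every nuclear group, while the mitochondrially encoded sums overlap between the genotypes. The ratio of means was 1.61 for all nuclear members and 1.59 for the mitochondrially encoded genes. The sum of all genes tested, not shown, was also higher in each knockout than in any control (ratio of means 1.22).

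The members lie on 19 chromosomes, 3 of them on X. Their promoters were searched for motifs of factors known to act on respiratory chain genes, using RefSeq promoter windows (mouse build GRCm38.p6) that run from 250 bases before to 50 bases after each transcription start. Windows were found for 76 of the 98 members, 81 windows in all. The motifs, searched on both strands, were CGCATGCG for NRF1 (the core of its site, the same on both strands), CCGGAAGTG for GABPA, TCAAGGTCA for ESRRA and AAGATGGCG for YY1. No matches of different motifs overlapped. The NRF1 letters were in 13.6% of member windows and 1.87% of the 32851 windows of all genes, the YY1 letters in 9.88% and 1.4%, the ESRRA letters in 2.47% and 0.423%, and the GABPA letters in 2.47% and 2.03%. The windows of all genes were not limited to genes tested here and were not matched for base content. These shares therefore do not show that a motif is particular to the members. Of all tested members 76.4% rose, with or without a match. The 11 members with NRF1 letters were Atp5g2, Atp5j, Atp5k, Atp5l, Cox6a1, Ndufa11, Ndufa8, Ndufaf4, Ndufaf5, Uqcr11 and Uqcrc1, all of which rose. Of these, Atp5l did not pass with no filter, under TPM scaling, or without any 1 of Control replicates 1 to 3 or Spry1_KO replicate 2 (limma adjusted p of 0.0518 to 0.132), and neither Ndufa11 (0.182), Atp5g2 (0.179) nor Ndufaf5 (0.114) passed under TPM scaling. Ndufaf5 was lost in other settings too, given with its values. Of the 8 YY1 matches, 7 lay within 50 bases after the start. Among the members with YY1 letters, Ndufaf8 did not pass and the others rose, though of these only Atp5j also passed under TPM scaling. Ndufs3 and Uqcrh (GABPA letters) and Atp5g3 and Sdhd (ESRRA letters) rose, Ndufs3 not under TPM scaling. The NRF1 and YY1 letters were shortened after longer forms had been searched in the same windows. A match is a description of the sequence and does not show that a factor binds there.

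Stretches around a match are printed for those genes among the 3 largest rises of each complex that held one. They read 5′ to 3′ on the gene's strand, with the matched letters in capitals. ESRRA letters appear here as their reverse complement, TGACCTTGA. Positions in GRCm38 are chr2:140170652-140170681 (plus strand) for Ndufaf5, chr4:24897963-24898082 (plus) for Ndufaf4, chr9:50603800-50603829 (minus) for Sdhd, chr9:108936668-108936697 (plus) for Uqcrc1 and chr2:73911327-73911446 (minus) for Atp5g3. The Ndufaf4 and Atp5g3 stretches are the 120 bases before the start, and the others are 30 bases around a match after the start.
Ndufaf5, NRF1: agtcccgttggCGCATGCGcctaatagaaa
Ndufaf4, NRF1: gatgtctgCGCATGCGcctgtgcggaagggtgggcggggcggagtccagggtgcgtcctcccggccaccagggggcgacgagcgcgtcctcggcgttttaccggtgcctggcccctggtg
Uqcrc1, NRF1: actccgctctgCGCATGCGcagcgcggctc
Sdhd, ESRRA: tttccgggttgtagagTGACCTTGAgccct
Atp5g3, ESRRA: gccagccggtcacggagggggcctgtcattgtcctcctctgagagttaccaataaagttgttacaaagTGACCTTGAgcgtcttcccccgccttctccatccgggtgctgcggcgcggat

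Complex I, the NADH dehydrogenase, had 28 of 40 tested genes higher and 12 that did not pass by limma (1 of these, Ndufv3, was lower at an unadjusted p under 0.05 and in limma-voom), with a median log2 fold change of 0.52. Under TPM scaling 17 rose and 4 fell, with a median of 0.26. Of all genes tested, 16.3% rose and 35.4% fell under that scaling, with a median of -0.22. All 7 nuclear core subunits, which hold the flavin and iron-sulfur clusters, rose (median 0.65). Ndufv1, the flavin-binding subunit that receives electrons from NADH, was at 29.1, 29.96 and 30.4 FPKM in the controls against 61.7, 60.6 and 60.8 FPKM in the knockouts. The groups were far apart relative to their spread, with a log2 fold change of 1.01 ± 0.07 and a limma adjusted p of 7.9e-05. Among other core genes, Ndufv2, the partner of Ndufv1 in the NADH-oxidising module, rose by 0.70, Ndufs1 and Ndufs3 by 0.53 each and Ndufs7 by 0.46. Under TPM scaling the rises of Ndufs1, Ndufs3 and Ndufs7 did not pass (limma adjusted p of 0.0633, 0.0795 and 0.336), and Ndufs7 also missed the threshold scaled to recovered reads (0.0587) and in limma-voom (0.0541).

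Among the 33 tested accessory names of complex I, 21 rose and 12 did not pass (median 0.45). Ndufc2, an accessory subunit of the membrane arm, was at 45.0, 43.9 and 40.01 FPKM in the controls against 81.4, 95.4 and 102 FPKM in the knockouts, a log2 fold change of 1.09 ± 0.11 with a limma adjusted p of 0.000287. Ndufa4 was at 125, 122 and 94.7 FPKM in the controls against 244, 242 and 306 FPKM in the knockouts, the largest rise among the complex I names (1.21 ± 0.15, limma adjusted p of 0.000719). Its paralog Ndufa4l2, a hypoxia-induced gene, did not pass, with 77.8, 256 and 114 FPKM in the controls against 86.6, 85.4 and 79.4 FPKM in the knockouts. Control 2 was far above the other samples and the groups overlapped (-0.65 ± 0.39, limma adjusted p of 0.203). Without Control replicate 1 the difference was -1.02 and passed (limma adjusted p of 0.0463), and it passed in no other alternative that was run.

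Accessory genes that did not pass were of different kinds. Ndufa12 was at 13.4, 19.8 and 18.4 FPKM in the controls against 38.9, 14.9 and 37.3 FPKM in the knockouts, so Spry1_KO 2 lay among the controls. Its log2 fold change was 0.69 (limma adjusted p of 0.145), and 1.12 without Spry1_KO replicate 2 (limma adjusted p of 0.00434). Ndufv3, a small accessory subunit next to the flavin site, was lower in every knockout sample (28.4, 27.7 and 25.6 against 22.3, 23.4 and 24.5 FPKM), a difference of -0.21 that just missed the threshold (limma adjusted p of 0.0586). It passed as lower under TPM scaling, median-ratio scaling and scaling to recovered reads, with array weights, in limma-voom and without Control replicate 3 (limma adjusted p of 0.00271 to 0.026). Ndufa6, Ndufa7 and Ndufb2 were also slightly below 0 (-0.05 to -0.15) and passed as lower under TPM scaling alone (limma adjusted p of 0.0348, 0.0216 and 0.0352). Under TPM scaling 35.4% of all genes tested fell. The 2 tested pseudogene members, Ndufb4c and Ndufs6b, did not pass (0.28 and -0.08).

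The complex I assembly factors, which help build the complex but are not part of it, were mixed: of 8 tested, 4 rose, 1 fell and 3 did not pass (median 0.37). They were also low in level, with means between 3.05 and 31.9 FPKM in either genotype. Ndufaf4 was at 3.54, 4.89 and 3.42 FPKM in the controls against 7.44, 7.27 and 8.30 FPKM in the knockouts (0.82 ± 0.13, limma adjusted p of 0.00205). Ndufaf6 rose by 0.74 and Ndufaf2 by 0.52, but 65.6% of the exon bases of Ndufaf2 overlap a gene on the opposite strand, whose reads cannot be told apart here. Ndufaf5 rose by 0.65 (limma adjusted p of 0.0201), with Spry1_KO 2 at 4.67 FPKM and the other knockouts at 7.20 and 7.85 FPKM, and no longer passed without Control replicate 1 or 2 or Spry1_KO replicate 1 or 3 (limma adjusted p of 0.0544 to 0.0699). Ndufaf5 also missed the threshold in limma-voom (adjusted p of 0.0581), and scaled to TPM neither it (limma adjusted p of 0.114) nor Ndufaf2 (0.131) passed. Ndufaf3 went the other way, with 9.82, 9.40 and 7.72 FPKM in the controls against 5.68, 6.32 and 7.64 FPKM in the knockouts. The lowest control and the highest knockout nearly met (-0.41 ± 0.13, limma adjusted p of 0.0349). That call was lost without Control replicate 1 or 2 or Spry1_KO replicate 1 or 2 (limma adjusted p of 0.0946 to 0.11) and with no filter on low genes (limma adjusted p of 0.0694).

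All 4 genes of complex II, succinate dehydrogenase, rose. Sdhd, a membrane anchor subunit, was at 44.5, 57.2 and 46.3 FPKM in the controls against 115, 105 and 105 FPKM in the knockouts (1.12 ± 0.11, limma adjusted p of 0.000334). Sdhb, the iron-sulfur subunit, was at 28.9, 30.5 and 27.9 FPKM in the controls against 48.5, 45.0 and 54.7 FPKM in the knockouts (0.74 ± 0.09, limma adjusted p of 0.000825). The flavoprotein subunit gene Sdha rose from 31.7 ± 0.766 to 45.9 ± 3.35 FPKM (SD, n = 3 each; 0.52 on the log2 scale). Sdhc, the other membrane anchor, changed least, with 24.2, 24.5 and 23.96 FPKM in the controls against 29.5, 29.3 and 33.9 FPKM in the knockouts (0.34 ± 0.08, limma adjusted p of 0.0134). Sdha and Sdhc missed the threshold once scaled to TPM (limma adjusted p of 0.132 and 0.567). Sdhc also missed it scaled to recovered reads (limma adjusted p of 0.0556) and in limma-voom (adjusted p of 0.0624).

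Complex III, the cytochrome bc1 complex, had 7 of 8 tested genes higher (median 0.77). Uqcrq, a small subunit near cytochrome b, was at 46.4, 51.7 and 50.7 FPKM in the controls against 119, 114 and 145 FPKM in the knockouts, the largest rise of this complex (1.32 ± 0.11, limma adjusted p of 0.000166). Uqcr10 was at 119, 125 and 114 FPKM in the controls against 221, 246 and 248 FPKM in the knockouts (0.99 ± 0.09). Every knockout sample lay well above every control for both genes. Uqcrc1, a core subunit, rose by 0.82 and its partner Uqcrc2 by 0.59, the latter not passing under TPM scaling (limma adjusted p of 0.0503). Uqcrfs1, which encodes the Rieske iron-sulfur protein, rose from 97.7 ± 11.6 to 168 ± 12.4 FPKM (SD, n = 3 each; 0.78). Uqcr11 had the highest level of the complex, with 138 ± 6.84 and 239 ± 44.9 FPKM (SD, n = 3 each; 0.77). The member that did not pass, Uqcrb, overlapped between genotypes, with 121, 108 and 117 FPKM in the controls against 114, 126 and 190 FPKM in the knockouts. Cyc1, chosen from a list of electron carriers and not by its name, was at 36.4, 43.1 and 43.6 FPKM in the controls against 107, 105 and 106 FPKM in the knockouts (1.35 ± 0.09, limma adjusted p of 8.34e-05).

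Complex IV, cytochrome c oxidase, had 10 of 12 tested genes higher and a median of 0.85. Its Cox8a had the highest mean FPKM of all 98 members, with 309, 325 and 291 FPKM in the controls against 579, 556 and 587 FPKM in the knockouts (0.90 ± 0.10, limma adjusted p of 0.000432). Cox7b was at 91.6, 91.9 and 89.1 FPKM in the controls against 164, 184 and 254 FPKM in the knockouts, which were well above the controls but spread among themselves (1.11 ± 0.16, limma adjusted p of 0.00145). Cox5a, which sits on the matrix side of the enzyme, was at 18.4, 23.0 and 19.6 against 39.3, 42.7 and 45.0 FPKM (1.03 ± 0.10). Cox5b rose from 62.9 ± 1.78 to 123 ± 8.18 FPKM (SD, n = 3 each; 0.96).

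Of the complex IV isoform pairs, the widely used form was the abundant one in both genotypes and rose in each pair. Cox4i1 went from 184 ± 5.46 to 289 ± 42.5 FPKM, Cox6a1 from 272 ± 12.0 to 506 ± 9.91 FPKM, and Cox6b1 from 194 ± 28.01 to 337 ± 21 FPKM (SD, n = 3 each). Cox7a2 went from 116 ± 6.75 to 186 ± 30.04 FPKM (SD, n = 3 each). The tissue isoforms were near the detection limit. Cox6a2, the heart and muscle form, was at 2.26, 0.563 and 0.528 FPKM in the controls against 0.146, 0.339 and 0.358 FPKM in the knockouts, or 28, 7 and 7 against 2, 4 and 4 recovered reads. Cox8b, also of muscle, had 3, 10 and 1 recovered reads in the controls and 0, 2 and 1 in the knockouts. The control with most Cox6a2 was also the control with the highest skeletal muscle marker sum (80.0 FPKM against 38.6 and 20.6), while Cox8b was highest in Control 2. That relation was not tested. Cox7a1, another muscle form, had 7, 13 and 5 reads in the controls and 13, 12 and 6 in the knockouts, and Cox4i2, the lung form, 1 to 6 reads in any sample. The testis form Cox6b2 was at 0.842, 0.691 and 1.16 FPKM in the controls against 2.16, 1.46 and 1.37 FPKM in the knockouts. It passed narrowly (0.48, limma adjusted p of 0.043) and no longer did when any 1 sample other than Control replicate 3 was left out (limma adjusted p of 0.0561 to 0.136), with no filter, or under any other scaling or limma-voom (0.0564 to 0.192). Cox7b2 and Cox8c were listed at 0 in every sample.

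Cox7a2l, a relative of Cox7a2 that tethers complexes III and IV into supercomplexes, was not higher in the knockouts. It was at 238, 254 and 171 FPKM in the controls against 185, 170 and 207 FPKM in the knockouts, with overlapping groups (-0.22 ± 0.17, limma adjusted p of 0.295). Without Control replicate 3, the lowest control, it passed as lower (-0.39, limma adjusted p of 0.0257), as it did with array weights (limma adjusted p of 0.0252) and under TPM scaling (0.015). The ratio of Cox7a2 to Cox7a2l was 0.485, 0.487 and 0.644 in the controls and 0.876, 1.04 and 1.06 in the knockouts, without overlap. Cox7c was the other tested gene that did not pass (0.32, limma adjusted p of 0.0701), with every knockout sample above the controls. With Spry1_KO replicate 1 left out it passed (limma adjusted p of 0.0494).

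Complex V, the ATP synthase, had 15 of 17 tested genes higher and 1 lower (median 0.71). Atp5b, the catalytic beta subunit, was at 149, 168 and 166 FPKM in the controls against 388, 377 and 373 FPKM in the knockouts (1.23 ± 0.09, limma adjusted p of 0.000105). Its partner in the catalytic head, the alpha subunit gene Atp5a1, had the highest mean FPKM of the complex over all 6 samples. In each knockout, however, the FPKM of Atp5b was above that of Atp5a1. Atp5a1 rose from 194 ± 13.6 to 374 ± 4.04 FPKM (SD, n = 3 each), by 0.95 on the log2 scale. The ratio of Atp5b to Atp5a1 was 0.797, 0.801 and 0.898 in the controls and 1.03, 1.01 and 1.01 in the knockouts, again without overlap. Atp5mpl, a small membrane subunit, had the largest rise of all members, with 40.8, 45.2 and 35.4 FPKM in the controls against 100.3, 116 and 141 FPKM in the knockouts (1.53 ± 0.15, limma adjusted p of 0.000277).

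The c-ring of complex V is built from 1 mature protein that 3 nuclear genes encode, and these rose by different amounts. Atp5g3 was at 55.9, 63.2 and 64.2 FPKM in the controls against 162, 160.1 and 169 FPKM in the knockouts (1.41 ± 0.09, limma adjusted p of 5.55e-05). Atp5g2 was at 88.5, 85.0 and 80.6 FPKM in the controls against 115, 117 and 114 FPKM in the knockouts (0.44 ± 0.08, limma adjusted p of 0.00328). It did not pass under TPM scaling (limma adjusted p of 0.179). Atp5g1 was at 14.6, 15.4 and 17.7 FPKM in the controls against 25.1, 26.3 and 28.2 FPKM in the knockouts (0.71 ± 0.10). In FPKM, Atp5g2 was above Atp5g3 in each control and below it in each knockout. The Atp5g3 to Atp5g2 ratio was 0.632, 0.743 and 0.796 in the controls and 1.42, 1.37 and 1.49 in the knockouts. Which gene stands above the other depends on the exon lengths used (1675 bases for Atp5g2 and 2181 for Atp5g3). The change of the ratio between genotypes does not depend on them. This ratio was not tested.

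Atp5s was the complex V name that fell. It encodes a factor B-like protein of the mitochondrion that RefSeq lists as Dmac2l. It was at 6.24, 6.54 and 6.77 FPKM in the controls against 2.44, 3.08 and 3.19 FPKM in the knockouts, a log2 fold change of -0.95 ± 0.10 with a limma adjusted p of 0.000419. It passed as lower in every alternative that was run. Atp5h, of the peripheral stalk, was the member that did not pass (0.21, limma adjusted p of 0.243), with overlapping groups.

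**Figure D3:**
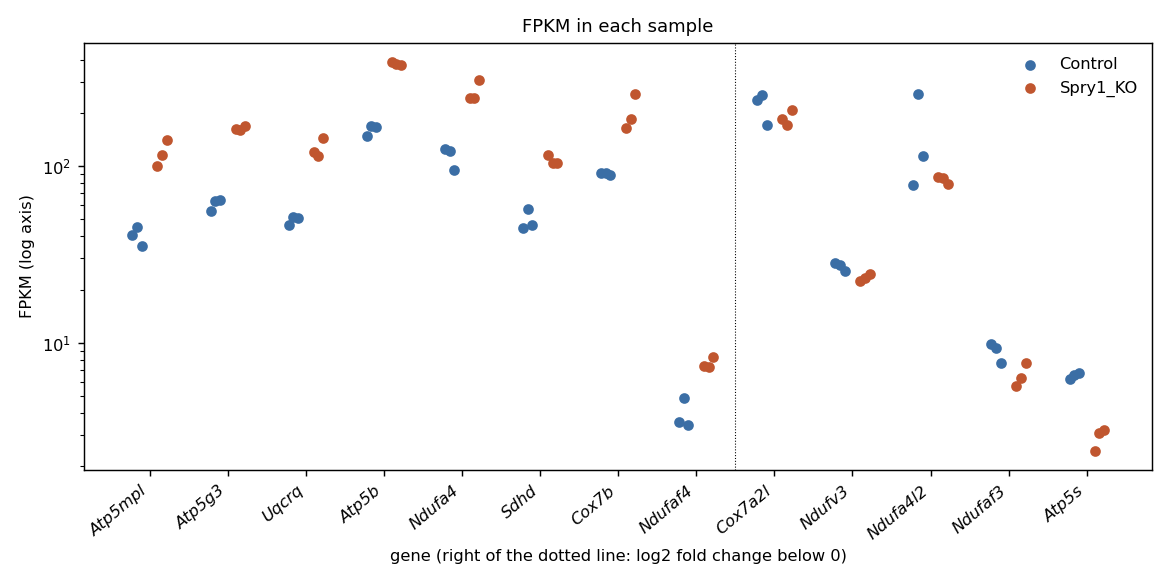
FPKM in each sample (log axis) of 8 members that rose, left of the dotted line, and of 5 members with a log2 fold change below 0, right of it. Atp5s and Ndufaf3 passed as lower, while Ndufa4l2 and Cox7a2l overlap between the genotypes and Ndufv3 missed the threshold.

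The knockout samples did not stand equally high. Spry1_KO 3 had the highest FPKM of the 3 knockouts for 71 of the 89 tested members (79.8%), beside 37.9% of all genes tested. For members with under 1000 exon bases it was the highest in 20 of 20, beside 47.1% of all tested genes that short, and the median exon length of the members was 1498 bases against 3903 for all genes tested. Without Spry1_KO replicate 3, 63 members rose and 2 fell, and the median was 0.55 (24.5% of all genes tested then rose and 20.9% fell). Of members with 2000 or more exon bases 29 of 33 rose (29.0% of all genes that long), of those with at least 1000 but under 2000 bases 25 of 36 (37.1%), and of those with under 1000 bases 14 of 20 (25.2%).

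Of the 13 subunits encoded in mitochondrial DNA, 1 fell and 12 did not pass, with a median log2 fold change of 0.36. Log2 fold changes were above 0 for 12 of the 13. The SEs ran from 0.34 to 0.63, so not passing does not show that these genes stayed level. The number that rose was 0 by limma and by limma-voom, and 2 (mt-Atp6 and mt-Cytb, named after their values were seen) at an unadjusted limma p under 0.05. Over protein-coding genes only and without Control replicate 1, mt-Atp6 passed as higher (limma adjusted p of 0.0466 and 0.0336), as mt-Cytb did without Spry1_KO replicate 1 (0.0436). They summed to 38029, 31184 and 13880 FPKM in the controls against 28593, 53238 and 50130 FPKM in the knockouts. The groups overlapped, and Control 3 was lowest. The ratio of the means was 1.59, beside 1.61 for the nuclear members. The mitochondrially encoded sum was 6.77, 5.15 and 2.57 times that of the nuclear members in the controls. In the knockouts it was 3.27, 6.12 and 5.001 times that sum. Over the 6 samples, mean levels of the 13 genes ran from 4.93 (mt-Atp8) to 13582 FPKM (mt-Co1), with mt-Atp6 at 111 FPKM. The cause of that spread was not tested. The gene that fell, mt-Nd3, was at 53.8, 59.4 and 16.8 FPKM in the controls against 6.15, 7.45 and 16.6 FPKM in the knockouts (-1.93 ± 0.53, limma adjusted p of 0.0202). Control 3 and Spry1_KO 3 were nearly equal, and the call was lost without any 1 of the other 4 samples (limma adjusted p of 0.0604 to 0.0693) and with no filter (limma adjusted p of 0.0512).

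Genes that feed or serve the chain were read from the same fit, in which 29.6% of all genes tested rose and 24.4% fell. Of 13 tested citrate cycle genes 11 rose (84.6%) and the other 2 did not pass: Mdh2 rose by 1.25, Idh3a by 1.17 and Idh3g by 0.86. Of 18 tested electron carriers and quinone genes 11 rose (61.1%) and 2 fell (11.1%). Cycs, which encodes cytochrome c, was at 20.0, 21.1 and 18.8 FPKM in the controls against 52.0, 52.6 and 69.6 FPKM in the knockouts (1.48 ± 0.13, limma adjusted p of 0.000174). Pdss1, needed for the side chain of ubiquinone, was at 1.16, 0.978 and 1.29 FPKM in the controls against 5.55, 6.04 and 6.05 FPKM in the knockouts (1.68 ± 0.10). The ubiquinone genes were not of 1 direction: Coq5 rose by 0.84, while the genes that fell were Coq2 and Coq8a, picked out with their values known (-0.53 and -1.36).

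Of 33 tested assembly factors outside the name rule 9 rose (27.3%, beside 29.6% of all genes tested) and 4 fell (12.1%, beside 24.4%), with a median of 0.13. Uqcc2, of complex III assembly, rose by 0.96, Cox10, of heme a synthesis for complex IV, by 0.89, Foxred1, of complex I, by 0.64 and Atpaf2, of complex V, by 0.62. The genes that fell, picked out with their values known, were Tmem126b (-0.78), an assembly factor of complex I, Surf1 (-0.45) and Cox19 (-0.26), of complex IV, and Ttc19 (-0.42), of complex III. Tmem126b no longer passed without Control replicate 1 or 2 or Spry1_KO replicate 1 or 2 (limma adjusted p of 0.0502 to 0.0534), nor did Cox19 with no filter, without any 1 sample other than Control replicate 3, or without Control 3 and Spry1_KO 2 (0.0563 to 0.147). Of 14 tested regulators of mitochondrial biogenesis 9 rose (64.3%) and 2 fell (14.3%), with a median of 0.34. Esrra, the nuclear receptor ERR alpha, was at 30.01, 29.7 and 27.0 FPKM in the controls against 39.9, 41.3 and 45.7 FPKM in the knockouts (0.53 ± 0.09, limma adjusted p of 0.00235). Yy1 rose by 0.36 and Ssbp1 by 0.40, neither of which passed when scaled to TPM (limma adjusted p of 0.503 and 0.232) or to recovered reads (0.0605 and 0.0508). Yy1 also missed the threshold in limma-voom (adjusted p of 0.0542), and Ssbp1 without Spry1_KO replicate 1 or 3 (limma adjusted p of 0.0506 and 0.051). Polg2, the accessory subunit of the mitochondrial DNA polymerase, fell by 0.77. Ppargc1a, the coactivator PGC-1 alpha, was below the filter and was not tested. It was at 0.258, 0.406 and 0.319 FPKM in the controls against 0.0755, 0.122 and 0.203 FPKM in the knockouts, lower without overlap.

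The members' median moved with the scaling, and so did the median of all genes. Under TPM scaling the median of all genes moved from 0.03 to -0.22 and that of the members from 0.63 to 0.36. Over all the settings that were run, the members' median exceeded that of all genes by 0.53 to 0.64. Of the 68 members that rose, 46 also passed as higher in every alternative and 22 were lost in at least 1. Genes with overlapping neighbours add uncertainty, since strand use in the counting was not given in the sources used here: 32 members share exon bases with another gene, among them Ndufb6, for which 39.0% of the exon bases lie under a gene on the opposite strand.

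**Figure D4:**
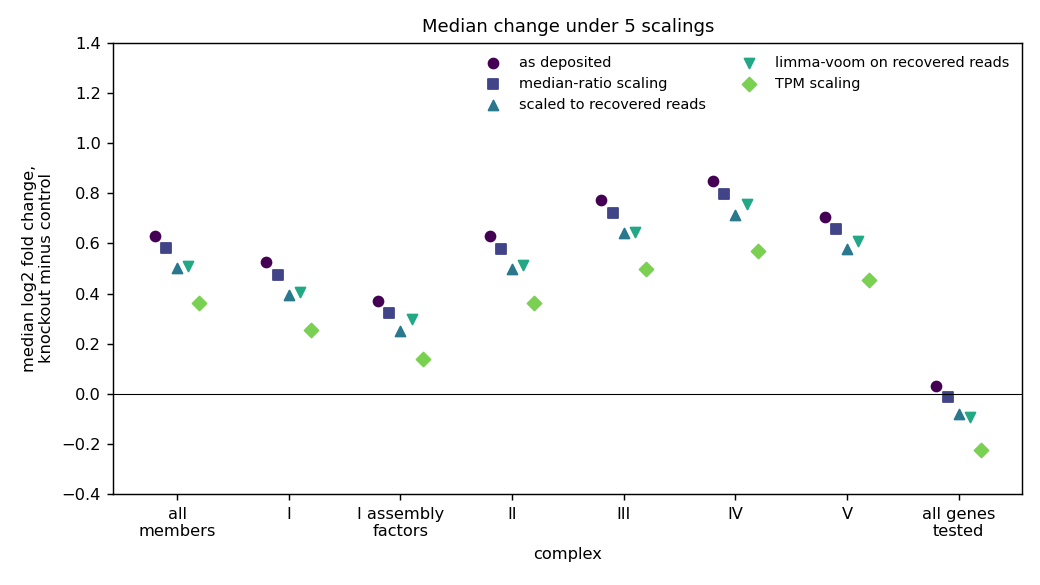
Median log2 fold change (knockout minus control) of the tested members, of each complex and of all genes tested, under 5 scalings. The scalings shift every median down together, and the members stay above all genes in each (0.36 against -0.22 under TPM scaling).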

How the data were processed

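Per the labels' protocols, epidermal RNA was harvested with Trizol and 0.4 ug went into each library. The authors deposited FPKM values of 6 samples in 1 table. The submitters' processing notes name HISAT2 2.0.5, featureCounts 1.5.0-p3 and the build GRCm38 (mm10). Not given in the sources used here: annotation release, strandedness, FPKM formula. FPKM depends on the exon length and on the total used for scaling. With GENCODE M21 exon lengths (54495 of 54532 IDs matched), FPKM times length came out as whole multiples of a single step in 97.5% to 97.9% of values (within 0.1 reads, where chance gives 20%). The authors' scaling totals were 98.8% to 102.9% of the reads so recovered in controls, and 88.1% to 95.6% in knockouts.

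Differences were tested with limma 3.58.1 in R 4.3.3 (trended variance, log2(FPKM + 1), genotype as sole term, two-sided), on genes averaging 1 FPKM or more, with Benjamini-Hochberg adjustment over all of them at 0.05. Fold changes on this scale understate the change of low genes. The fit was tested on simulated data. Members and lists were chosen with earlier results of these data known. Named genes were, per complex, the 3 largest rises and falls past the threshold and the most abundant member, all of complex II, the tissue isoforms, Spry1, and per other list up to 4 past the threshold by p (2 where none passed). Other genes were picked out with their values known. Groups and replicate numbers came from the sample titles. No replicates agreed within sampling noise (chi-square per gene of 12.0 to 68.2). Settings varied were the pseudocount (0.1), the filter (none), the scaling (median-ratio, TPM), array weights, a replicate block, limma-voom on recovered reads, protein-coding genes only, and samples left out. Scaling to recovered reads was chosen after seeing the data. Some genes are not reported here by name.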

Additional observations from a re-analysis of the deposited data

How the results depend on the processing

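Of the 68 members that rose, 46 passed in every alternative. The labels do not say whether equal replicate numbers pair the samples. Deviations from the group means correlated at -0.098, -0.111 and -0.125 for the 3 same-numbered pairs, and at -0.043 to 0.147 for the others. With 3 samples per group, such correlations cannot decide whether samples were paired. With a replicate block 62 members rose and 1 fell (25.5% and 20.7% of all genes). The members that did not pass in that fit were Ndufa13, Ndufa9, Ndufb11, Ndufaf3, Cox6b2, Atp5c1 and Atp5l (limma adjusted p of 0.059 to 0.101), and of other named genes mt-Nd3, Cox19, Krt10 and Trp63 did not (0.0503 to 0.115). With no filter 1 member fell, with array weights 4 and under TPM scaling 7 (13.1%, 28.6% and 35.4% of all genes). Leaving out 1 sample at a time gave 62 to 66 risen and 1 to 4 fallen members. In those fits 24.5% to 31.6% of all genes rose and 19.3% to 26.3% fell. Among complex I names, 17 rose and 4 fell under TPM scaling, and 1 fell under median-ratio scaling, scaled to recovered reads, with array weights and in limma-voom (0 to 1 without single samples). Of the assembly factors 2 rose under TPM scaling, and 0 fell with no filter or with the replicate block (0 to 1 without single samples). Complex II had 2 risen genes under TPM scaling. In complex IV, 1 gene fell under TPM scaling and with array weights (0 to 1 without single samples). Of all genes tested, 2055 rose under TPM scaling.

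Medians moved with the scaling. Under TPM scaling they were 0.36 for all members, 0.26 for complex I, 0.14 for its assembly factors, 0.36 for complex II, 0.50 for complex III, 0.57 for complex IV and 0.45 for complex V, and -0.22 for all genes. Scaled to recovered reads they were, in the same order, 0.50, 0.39, 0.25, 0.50, 0.64, 0.71, 0.58 and -0.078. In limma-voom the median was 0.51 for all members, 0.40 for complex I, 0.51 for complex II, 0.65 for complex III, 0.76 for complex IV, 0.61 for complex V and -0.093 for all genes. The median of all genes was -0.010 with no filter and -0.012 under median-ratio scaling, and with no filter that of complex IV was 0.64. Without single samples the median ranged from 0.55 to 0.67 for all members and from 0.69 to 0.90 for complex IV. The TPM, median-ratio and recovered-read scalings each multiply all FPKM of a sample by 1 factor, so they move the medians of all groups in 1 direction. Why those factors differ between genotypes, and the cause of the other shifts, were not tested.

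Genes near 0 changed sign, none of them passing where they did. Under TPM scaling the log2 fold changes of Ndufb3 (-0.18), Ndufa3 (-0.14), Ndufb4 (-0.079), Ndufs5 (-0.013), Ndufaf7 (-0.22), Ndufaf1 (-0.12), Ndufaf8 (-0.055), Uqcrb (-0.00019) and Atp5h (-0.072) were below 0. Ndufb3 was also below 0 scaled to recovered reads (-0.037), with array weights (-0.014), in limma-voom (-0.038) and with both Control replicate 3 and Spry1_KO replicate 2 left out (-0.0098). Ndufaf7 was below 0 under median-ratio scaling (-0.0065), scaled to recovered reads (-0.074) and in limma-voom (-0.090). Without single samples, Ndufb3 ranged from -0.016 to 0.16, Ndufaf7 from -0.045 to 0.11, Ndufa7 from -0.22 to 0.018, Ndufs6b from -0.28 to 0.14 and Ndufa6 from -0.19 to 0.063. Beyond the common factor per sample in the scalings, the cause was not tested. Depth limits the tissue isoforms of complex IV that could not be tested, which had at most 28 recovered reads in any sample.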
